A study of Homo sapiens with 18 samples.

Results

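The genes described here were the 44 genes of a named list of the DNA replication machinery, out of the 57500 genes counted in each library. They were chosen by name and not by a rule on measured values, but with earlier results of these data known. They are the 6 subunits of the MCM helicase (MCM2 to MCM7), the 6 subunits of the origin recognition complex (ORC1 to ORC6), 3 loading and licensing factors, 6 helicase activation factors, 9 subunits of the polymerases and primase, 6 genes of the sliding clamp and its loader, 2 genes of flap cleavage and nick sealing, the 3 subunits of the single-strand binding protein RPA, and 3 enzymes of nucleotide supply. All 44 were found by symbol, and all 44 passed the filter on low counts in every comparison, the lowest count of any of them in a library being 330.

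RNA-seq was run on 2 sarcoma cell lines that express dCas9-KRAB, a catalytically dead Cas9 joined to a repressor domain that silences a gene near its start. ES8 is an Ewing sarcoma line and Rh30 a rhabdomyosarcoma line. In each line the groups were cells with a non-targeting guide (sgCTL), cells with a guide against the 5′ region of DNAJC17 (sgDNAJC17), and cells that received the same DNAJC17 guide while stably expressing, from a lentiviral EF1 promoter, a 3xFLAG-tagged DNAJC17 without its RNA recognition motif (ΔRRM), each with 3 replicates (A, B and C) and collected after 72 hours of puromycin. DNAJC17 is a J-domain co-chaperone. A ΔRRM line with sgCTL was not analysed here. By the paper's methods the EF1 construct was selected with hygromycin. Expression of the transgene, that transduction and selection, and the response to the knockdown therefore cannot be told apart in ΔRRM cells. The replicates were plated side by side from 1 line, so p-values measure only the spread between these samples, which may be technical.

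Eukaryotic DNA replication starts in G1, when the origin recognition complex, CDC6 and CDT1 load the MCM helicase onto DNA and so license each origin. At the start of S phase CDC45 and the GINS complex join the helicase and activate it, primase and polymerase alpha lay down primers, and polymerases epsilon and delta copy the leading and lagging strands on the PCNA clamp. Many of these genes are transcribed together late in G1 under E2F factors, and fast-growing tumour cells such as those of sarcomas express them highly.

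Library totals ran from 35342393 to 48245989 counts. DNAJC17 itself had 559 to 625 counts in the ES8 sgCTL libraries, 59 to 77 with sgDNAJC17 and 13295 to 14449 in ΔRRM cells, where the transgene adds to the count. In Rh30 the same ranges were 461 to 522, 81 to 113 and 9849 to 13947. All 7 Ewing sarcoma markers had a mean of at least 5 CPM (counts scaled to a common library size) in ES8, and all 8 rhabdomyosarcoma markers did in Rh30. The summed level of 12 epithelial markers was 1.20 to 1.70 CPM in Rh30 sgCTL, 13.6 to 19.3 CPM in Rh30 sgDNAJC17 and 14.4 to 16.8 CPM in Rh30 ΔRRM, with CLDN7 and RAB25 at 0 counts in the Rh30 sgCTL libraries, and it was 34.4 to 44.8 CPM over the ES8 groups. ES8 sgDNAJC17 replicate A stood apart most: it lay farther from B and C than these lay from each other in 36 of the 44 members and in 67.8% of the 14175 genes with a mean above 1 CPM. Rh30 sgCTL replicate A did so in 29 members and 44.6% of genes. The other libraries did so in 3 to 21 members and in 15.1% to 46.3% of genes. The largest of these gene shares was that of ES8 ΔRRM replicate B, which stood apart in 19 members. Counts of called members in comparisons that use ES8 sgDNAJC17 replicate A or Rh30 sgCTL replicate A are given with and without that library.

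Before any knockdown the members were abundant and unevenly so. Per kilobase of exon, the highest mean level in ES8 sgCTL was that of MCM7, at 389 CPM per kb, followed by PCNA at 169, MCM2 at 124 and POLD2 at 97.2, and the lowest was that of ORC4 at 3.31. In Rh30 sgCTL PCNA was highest at 228 CPM per kb, then MCM7 at 210.1, and POLE, the catalytic subunit of polymerase epsilon, was lowest at 4.13. Between the control cells of the 2 lines, 24 members were higher in Rh30, which is 54.5% of them beside a background of 42% of the 17925 genes tested, and 14 were lower, 31.8% beside a background of 45.5%. Without Rh30 sgCTL replicate A 26 were higher and 14 lower, beside backgrounds of 41% and 45.5%. POLE differed most: its level was 252, 260.3 and 254 CPM in the ES8 replicates A, B and C and 74.6, 64.9 and 66.5 CPM in those of Rh30 (log2 fold change -1.92, SE 0.05, adjusted p = 4.06e-32). The ranges of the 2 lines lay far apart, and no other member differed as much. RFC1, the large subunit of the clamp loader, was the member most raised in Rh30 (log2 difference 1.29). The list median of this difference, 0.20, fell to -0.02 when libraries were scaled by their totals alone, where 20 members were lower and 18 higher, beside backgrounds of 51.7% and 35.6%.

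The promoters of the members carried E2F-like sequence more often than promoters at large, and the sites of members on which the results below turn are shown here. RefSeq promoters (GRCh38.p14, 250 bases before to 50 after the start) were matched for 38 of the 44 members; MCM4, MCM5, GINS4, POLD3, RPA2 and RPA3 were not matched. The 8-base pattern TTTNNCGC, or GCGNNAAA on the other strand, was in 21 of 38 (55.3%) against 6.9% of all 27305 promoters. CCAAT on either strand, which also occurs by itself in NF-Y sites, was in 22 of 38 (57.9%) against 35.7%, and TTTGAA on either strand was in 1 of 38 (2.63%), that of RRM1, against 15.4%. Of the 15 matched members that were lower in the ES8 knockdown, 9 held TTTNNCGC. The windows of CDC45 and POLD1, the members with the largest falls, did not. The lines give 24 bases of each gene's own strand, 5′ to 3′, with the match in capitals, for 4 members that were lower in both knockdowns (MCM3, MCM7, POLE and LIG1), for ORC6 and GINS1, which rose in the Rh30 knockdown, and for PCNA, which rose most in Rh30 ΔRRM against sgDNAJC17 cells.
MCM3, chr6:52284731-52284754, minus strand: tcggaagtTTTCGCGCcggggtgg
MCM7, chr7:100101391-100101414, minus strand: gggcgacgTTTCGCGCcaatttcg
POLE, chr12:132687345-132687368, minus strand: gtgggagcGCGCCAAAtttctccc
LIG1, chr19:48170443-48170466, minus strand: tcacccctTTTCCCGCcctcctcc
ORC6, chr16:46689528-46689551, plus strand: atgcgcatGCGCAAAAggaagacc
GINS1, chr20:25407670-25407693, plus strand: tttgttcgGCGCCAAAgcgcggag
PCNA, chr20:5126666-5126689, minus strand: cgtcagggGCGGGAAAaggcgtgc
MCM3 held 2 further matches and MCM7 1, and the one nearest the start is printed. The first base of the printed match lies 4, 9, 18, 114, 123 and 59 bases before the start in MCM3, MCM7, POLE, LIG1, ORC6 and PCNA and 6 bases after it in GINS1. A match is a description of the letters. Genes that fell and genes that rose both carried it.

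In ES8 cells the knockdown of DNAJC17 lowered 16 of the 44 replication genes and raised 2. Those called lower were 36.4% of the members beside a background of 13.8% of the 17143 genes tested, and those called higher were 4.55% beside 13.6% (quasi-likelihood test of edgeR, p adjusted by the Benjamini-Hochberg method over all genes tested, called under 0.05). The falls were modest: the list median was -0.17 on the log2 scale against -0.02 for all genes, 37 of 44 values lay below 0, and none reached a 2-fold change. In bulk RNA, fewer cells in S phase and less of a transcript per cell cannot be told apart. Polymerase and primase genes carried the most calls, with 6 of 9 lower (POLA1, POLA2, PRIM1, POLD1, POLE and POLE2), followed by the helicase with 4 of 6 (MCM3, MCM4, MCM6 and MCM7). CDC45 and GINS2 fell among the activation factors, RFC4 in the clamp loader, LIG1 among the nick-sealing genes, and both ribonucleotide reductase genes, RRM1 and RRM2, which make deoxyribonucleotides. Of the 6 origin recognition genes 0 were called by edgeR, with 1 at an unadjusted p under 0.05 and 1 called by DESeq2.

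**Figure D1:**
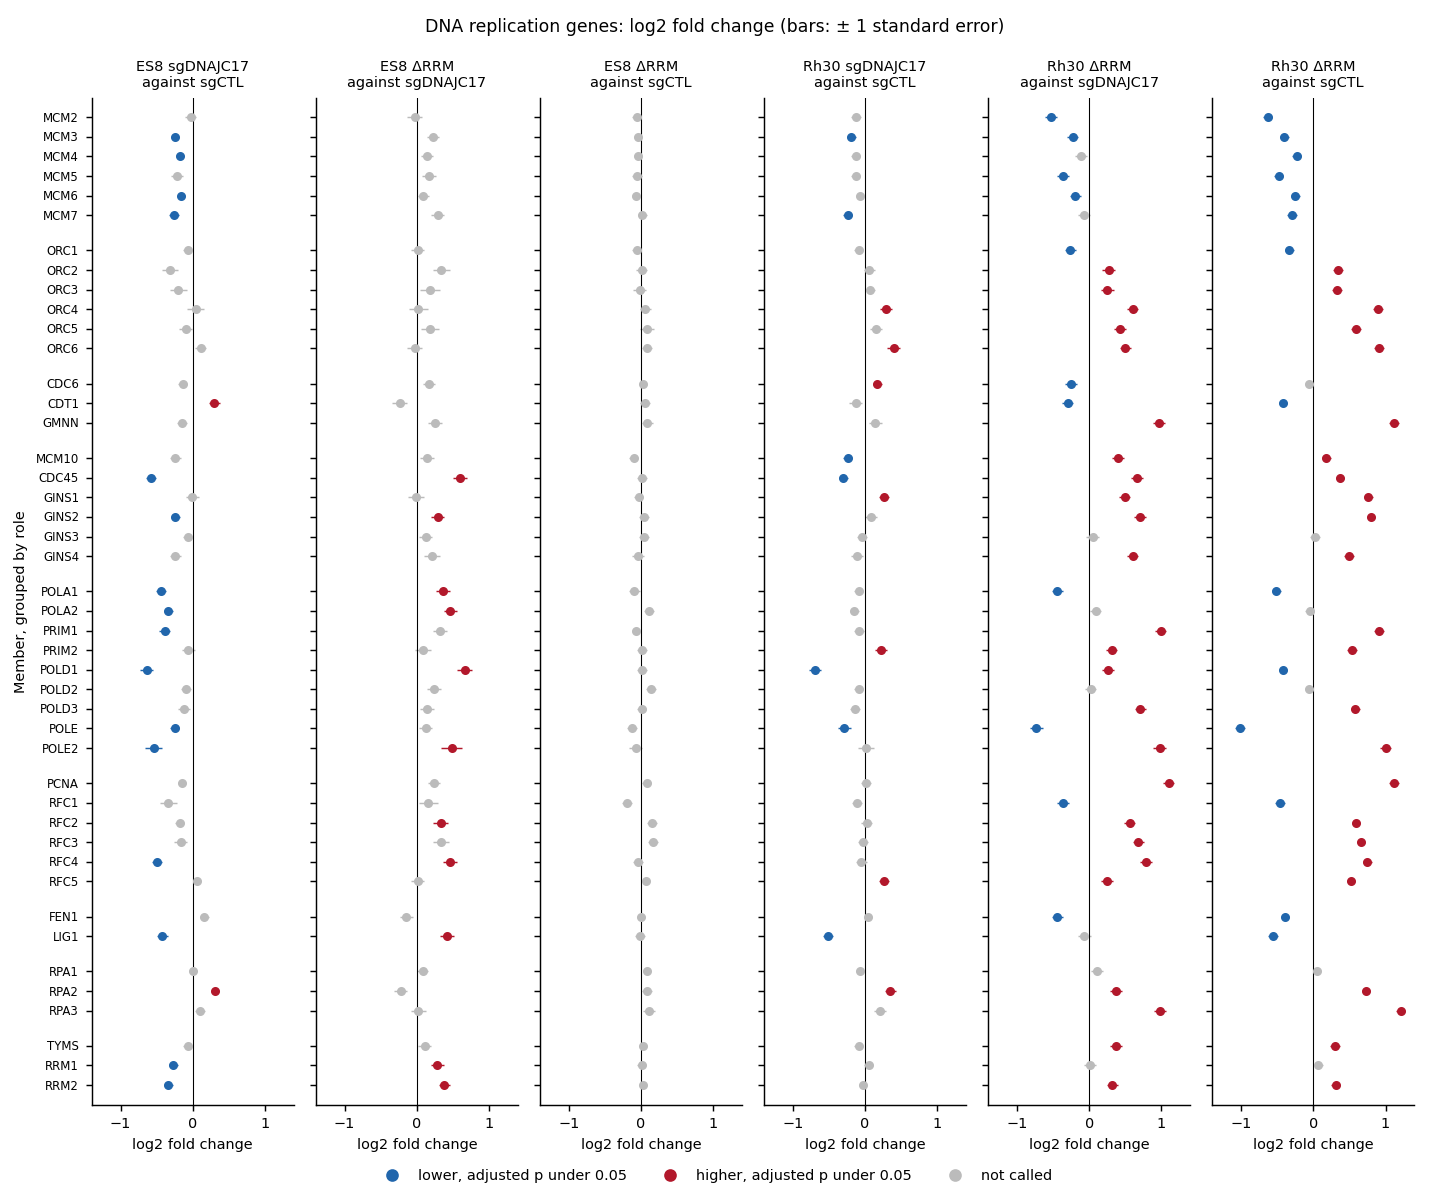
Log2 fold change (x axis) of each of the 44 DNA replication genes (y axis, grouped by role) in 6 comparisons, with bars of 1 standard error either side, blue where called lower and red where called higher at an adjusted p under 0.05. In the ES8 knockdown 16 members are blue, in ES8 ΔRRM against sgCTL 0 are coloured, and the Rh30 ΔRRM panels spread from -1.01 to 1.21.

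POLD1, the catalytic subunit of polymerase delta, fell most. POLD1 in ES8 replicates A, B and C was 144, 156 and 143 CPM in sgCTL, 111, 88.8 and 90.2 CPM in sgDNAJC17 and 140.5, 159.6 and 151 CPM in ΔRRM. The 3 knockdown libraries lay below all sgCTL and ΔRRM libraries (log2 fold change -0.64, SE 0.09, adjusted p = 0.00111), and 8.77% of its exonic bases also belong to another gene on the same strand. CDC45, which activates the MCM helicase, came next. CDC45 in ES8 replicates A, B and C was 59.0, 57.5 and 56.6 CPM in sgCTL, 41.9, 38.5 and 37.1 CPM in sgDNAJC17 and 54.4, 61.7 and 59.6 CPM in ΔRRM. Again no knockdown library overlapped the others (log2 fold change -0.58, SE 0.07, adjusted p = 0.000523). POLE2, the second subunit of polymerase epsilon, was a low gene with wider spread. POLE2 in ES8 replicates A, B and C was 15.6, 14.7 and 16.4 CPM in sgCTL, 8.72, 12.1 and 11.8 CPM in sgDNAJC17 and 15.0, 15.9 and 13.7 CPM in ΔRRM. Its lowest value was in replicate A, and the groups did not overlap (log2 fold change -0.54, SE 0.12, adjusted p = 0.00958). RFC4, a clamp loader subunit, had tight replicates. RFC4 in ES8 replicates A, B and C was 36.5, 36.5 and 38.2 CPM in sgCTL, 25.9, 26.7 and 27.8 CPM in sgDNAJC17 and 35.5, 37.6 and 35.6 CPM in ΔRRM. The fall was 0.49 on the log2 scale with an SE of 0.07 (adjusted p = 0.00104), again without overlap.

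LIG1, the ligase that seals Okazaki fragments, and POLA1, the catalytic subunit of polymerase alpha, moved by similar amounts. LIG1 in ES8 replicates A, B and C was 78.6, 83.5 and 85.2 CPM in sgCTL, 67.3, 57.7 and 62.9 CPM in sgDNAJC17 and 75.0, 86.9 and 84.9 CPM in ΔRRM. All 3 knockdown libraries were lowest (log2 fold change -0.42, SE 0.07, adjusted p = 0.00264). POLA1 in ES8 replicates A, B and C was 70.1, 68.5 and 68.4 CPM in sgCTL, 46.3, 54.6 and 54.0 CPM in sgDNAJC17 and 71.0, 61.0 and 64.1 CPM in ΔRRM. The same held for POLA1 (log2 fold change -0.44, SE 0.07, adjusted p = 0.0024). PRIM1, the primase subunit that makes the RNA primer, had a log2 fold change of -0.39. PRIM1 in ES8 replicates A, B and C was 47.2, 44.2 and 45.9 CPM in sgCTL, 31.9, 35.6 and 39.2 CPM in sgDNAJC17 and 44.5, 44.8 and 41.9 CPM in ΔRRM. Its knockdown libraries were below every other ES8 library. RRM2, the regulated subunit of ribonucleotide reductase, stood at a much higher level. RRM2 in ES8 replicates A, B and C was 377, 367 and 385 CPM in sgCTL, 281, 316 and 310.5 CPM in sgDNAJC17 and 399, 387 and 375 CPM in ΔRRM. Its groups also did not overlap (log2 fold change -0.34, SE 0.06, adjusted p = 0.00284).

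In the helicase the falls were smaller but the counts are among the highest in the list. MCM3 in ES8 replicates A, B and C was 322, 331 and 327 CPM in sgCTL, 293, 269 and 275 CPM in sgDNAJC17 and 309, 328 and 323 CPM in ΔRRM. MCM3 was lower in each knockdown library (log2 fold change -0.25, SE 0.05, adjusted p = 0.00794). MCM7 in ES8 replicates A, B and C was 1690, 1722 and 1709 CPM in sgCTL, 1603, 1386 and 1367 CPM in sgDNAJC17 and 1639, 1840 and 1752 CPM in ΔRRM. MCM7 was also lower in each (log2 fold change -0.26, SE 0.07, adjusted p = 0.017), with replicate A nearest to the controls, and 8.94% of its exonic bases are shared with AP4M1 on the opposite strand. MCM2 in ES8 replicates A, B and C was 610.3, 625 and 595 CPM in sgCTL, 696, 564 and 565 CPM in sgDNAJC17 and 559, 592 and 614 CPM in ΔRRM. MCM2 overlapped the controls, since replicate A lay above all of them (log2 fold change -0.03, SE 0.08, adjusted p = 0.839). POLE was lower by a similar amount as MCM7. POLE in ES8 replicates A, B and C was 252, 260.3 and 254 CPM in sgCTL, 235, 206 and 214 CPM in sgDNAJC17 and 240.2, 215 and 248 CPM in ΔRRM. The knockdown libraries lay below sgCTL but overlapped ΔRRM (log2 fold change -0.25, SE 0.06, adjusted p = 0.0144). The calls of MCM7 and POLE are near the threshold: each loses its call when 1 of several libraries is left out, MCM7 without any 1 of 5 of the 6 libraries (adjusted p 0.0518 to 0.0705; replicate A of sgDNAJC17 is the exception) and POLE without any 1 of 4 (0.0547 to 0.0734; each sgCTL replicate and sgDNAJC17 replicate B).

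CDT1 and RPA2 were the members called higher in ES8. CDT1, the licensing factor that loads MCM, rose in all 3 libraries. CDT1 in ES8 replicates A, B and C was 117, 119.9 and 113 CPM in sgCTL, 165, 136 and 137 CPM in sgDNAJC17 and 112, 132 and 119.9 CPM in ΔRRM. Replicate A was highest (log2 fold change 0.30, SE 0.08, adjusted p = 0.0195), and the call is lost without any 1 of the 3 sgCTL replicates (adjusted p 0.0545 to 0.0944). RPA2, the middle subunit of RPA, rose more evenly. RPA2 in ES8 replicates A, B and C was 101, 94.9 and 96.7 CPM in sgCTL, 118, 124 and 125 CPM in sgDNAJC17 and 98.5, 115 and 97.6 CPM in ΔRRM. The knockdown libraries lay above all sgCTL and ΔRRM libraries (log2 fold change 0.31, SE 0.06, adjusted p = 0.00347). GINS1, whose splicing the study followed, did not pass the test at the level of the whole gene. GINS1 in ES8 replicates A, B and C was 52.6, 49.8 and 53.3 CPM in sgCTL, 44.6, 57.4 and 54.9 CPM in sgDNAJC17 and 50.9, 52.9 and 49.8 CPM in ΔRRM. All 3 groups overlapped (log2 fold change -0.01, SE 0.09, adjusted p = 0.939). FEN1, the flap endonuclease of lagging strand maturation, had all 3 knockdown libraries above the controls but was not called. FEN1 in ES8 replicates A, B and C was 154, 156 and 152 CPM in sgCTL, 187, 168 and 169 CPM in sgDNAJC17 and 144, 166 and 153 CPM in ΔRRM. Its log2 fold change was 0.16, with an adjusted p of 0.0768.

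Counts in ES8 moved with single libraries while the list median did not. Without sgDNAJC17 replicate A, 27 members were lower and 5 higher, beside backgrounds of 22.9% and 22.4%. Without sgCTL replicate A 10 were lower and 1 higher, beside backgrounds of 6.91% and 7.93%, and without sgCTL replicate C the counts were also 10 and 1, beside 6.69% and 7.61%. Leaving out sgCTL replicate B gave 1 higher, beside 8.27%. Over the 6 fits that leave out 1 library the list median stayed between -0.18 and -0.16. With counts corrected for GC content and gene length 27 members were lower and 4 higher, beside backgrounds of 20% and 22.3%, and 17 of the 18 calls were kept (not MCM6).

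In ΔRRM cells of ES8 the replication genes stood near the level of control cells, and so did genes at large, of which very few were called against sgCTL. Against sgDNAJC17 cells 11 members were higher, 25% beside a background of 7.35% of the 17099 genes tested, and 0 were lower by edgeR beside a background of 7.36% (2 lower at an unadjusted p under 0.05, 0 by DESeq2). The list median was 0.18. The 11 were CDC45, GINS2, POLA1, POLA2, POLD1, POLE2, RFC2, RFC4, LIG1, RRM1 and RRM2. POLD1 (log2 fold change 0.66, SE 0.10, adjusted p = 0.00259) and CDC45 (log2 fold change 0.60, SE 0.10, adjusted p = 0.00268) rose most. Against sgCTL cells edgeR called 0 members in either direction, beside backgrounds of 0.0814% lower and 0.093% higher among 17199 genes, with 1 lower and 1 higher at an unadjusted p under 0.05 and 0 by DESeq2. The smallest adjusted p of a member was 0.31, the list median 0.01, and the values ran from -0.19 for RFC1 to 0.17 for RFC3. In MCM6, MCM10, POLE and RFC1 the 3 ΔRRM libraries lay below all 3 controls, and in POLA2, POLD2, RFC3 and RPA1 above all 3, without a call. POLE was lower by 0.13 on the log2 scale (adjusted p = 0.406). How often groups lie apart in this way over all genes is not given. Leaving out ΔRRM replicate A gave 1 member called lower in this comparison, beside a background of 1.32%.

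The 16 members called lower in the ES8 knockdown had a median log2 fold change of -0.34 in the knockdown, 0.34 in ΔRRM against sgDNAJC17 and -0.02 in ΔRRM against sgCTL, where they ran from -0.13 to 0.11. These comparisons share libraries, and the 16 were picked by the first of them, so the 3 medians are a description. Of the 16, 10 were called higher in ΔRRM against sgDNAJC17. Without ES8 sgDNAJC17 replicate A 15 members were higher in that comparison, beside a background of 9.88%. Without sgDNAJC17 replicate B 3 were, beside a background of 2.6%, and without sgDNAJC17 replicate C 5, beside 3.3%. Without ΔRRM replicate A or B 7 were, beside 4.59% and 5.51%, and without ΔRRM replicate C 5, beside 2.62%. Leaving out ΔRRM replicate B also gave 1 member called lower, beside a background of 5.29%. The calls of POLA1, POLE2, RFC4 and LIG1 against sgDNAJC17 were each lost without at least 1 library (adjusted p 0.0705 to 0.113 in 4 fits for POLA1, 0.0513 to 0.0992 in 5 for POLE2, 0.0513 without sgDNAJC17 replicate B for RFC4, and 0.0552 to 0.106 in 3 for LIG1).

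**Figure D2:**
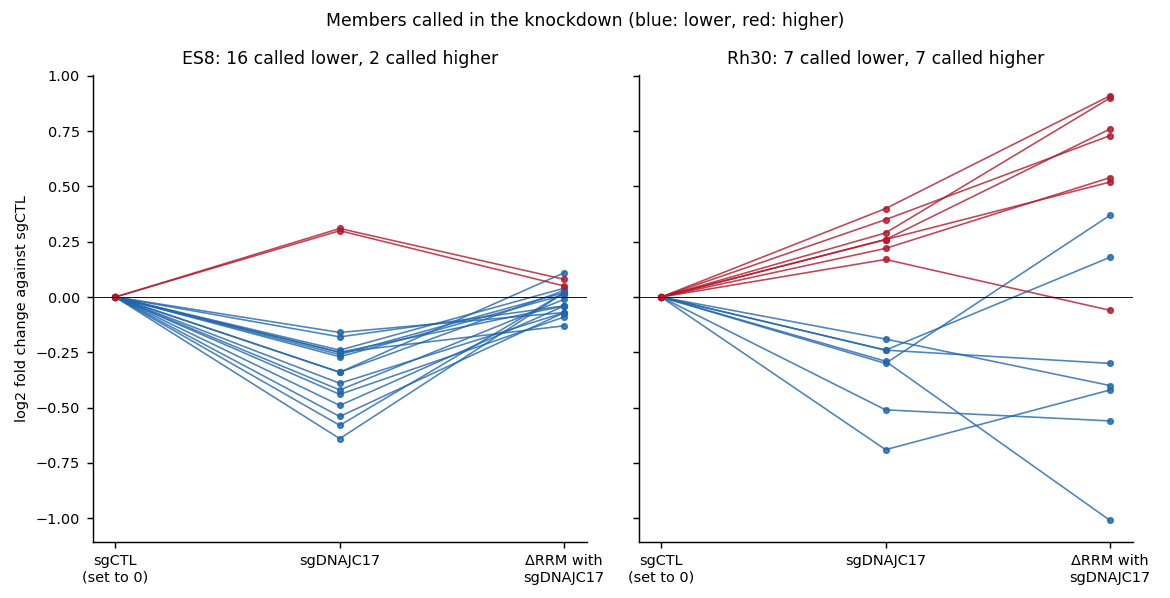
Log2 fold change against sgCTL (y axis, sgCTL set to 0) of each member called in a knockdown, in sgDNAJC17 and in ΔRRM cells with sgDNAJC17 (x axis), with 1 line per gene, blue for called lower and red for called higher. In ES8 the 16 lower members sit between -0.13 and 0.11 in ΔRRM cells, and in Rh30 the 14 members run from -1.01 to 0.91.

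In Rh30 cells the knockdown called 7 members lower and 7 higher. These were 15.9% each way, beside backgrounds of 16.2% lower and 16.1% higher among 15391 genes, shares close to those of all genes, and the list median was -0.06 against 0.00. With GC content and length corrected 15 were lower and 5 higher, beside backgrounds of 14.9% and 16.9%, so the closeness of the lower share to the background does not hold there. Called lower were MCM3, MCM7, MCM10, CDC45, POLD1, POLE and LIG1, and called higher ORC4, ORC6, CDC6, GINS1, PRIM2, RFC5 and RPA2. Among genes above 1 CPM the libraries of the same replicate letter deviated together in each of the 3 pairs. With the letter as a block 16 members were lower and 10 higher, beside a background of 23.5% each way, with all 14 calls kept. The lower share was above the background in that fit too. The Rh30 knockdown calls, SEs and adjusted p given per gene are from the fit without the block. Without sgCTL replicate A 5 were lower and 3 higher, beside backgrounds of 10.4% and 9.7%. Without sgDNAJC17 replicate A 10 were lower and 11 higher, beside 21.1% and 20.3%, and without sgDNAJC17 replicate B or C 4 were higher, beside 9.45% and 11.7%.

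Of the 7 Rh30-lower members 6 were also lower in ES8 (MCM3, MCM7, CDC45, POLD1, POLE and LIG1), which is 85.7% of the Rh30 list and 37.5% of the ES8 list, and RPA2 was higher in both. These 2 comparisons share no library. Over the 13841 genes tested in both, 856 were lower in both, which is 36.2% of those lower in Rh30 and 41.8% of those lower in ES8, and 854 were higher in both, 36.7% and 40.8%. Of the 6 members, MCM3 and POLE in Rh30 and MCM7 and POLE in ES8 lose their calls in most fits that leave out 1 library. No member was called in opposite directions in the 2 lines.

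POLD1 again fell most. POLD1 in Rh30 replicates A, B and C was 172, 167 and 166 CPM in sgCTL, 118, 101 and 91.1 CPM in sgDNAJC17 and 127, 120.0 and 122 CPM in ΔRRM. Both sets of libraries with the DNAJC17 guide lay below sgCTL (log2 fold change -0.69, SE 0.08, adjusted p = 5.06e-05 in the knockdown). LIG1 fell as well. LIG1 in Rh30 replicates A, B and C was 55.4, 53.1 and 50.9 CPM in sgCTL, 38.5, 38.1 and 34.1 CPM in sgDNAJC17 and 36.4, 32.8 and 36.0 CPM in ΔRRM. Its ΔRRM libraries overlapped the knockdown and were all below sgCTL (log2 fold change -0.51, SE 0.07, adjusted p = 0.000179). CDC45 was lower in the knockdown and highest in ΔRRM cells. CDC45 in Rh30 replicates A, B and C was 109, 116 and 117 CPM in sgCTL, 89.1, 91.9 and 93.3 CPM in sgDNAJC17 and 147, 143 and 142 CPM in ΔRRM. No 2 groups overlapped (log2 fold change -0.30, SE 0.06, adjusted p = 0.00228). MCM3 in Rh30 replicates A, B and C was 285, 275 and 278 CPM in sgCTL, 258, 238 and 233 CPM in sgDNAJC17 and 210.0, 212 and 196 CPM in ΔRRM. MCM3 fell stepwise over the 3 groups, which did not overlap (log2 fold change -0.19, SE 0.06, adjusted p = 0.0257), but its knockdown call is lost without any 1 of 5 libraries (adjusted p 0.0657 to 0.119; sgDNAJC17 replicate A is the exception). MCM7 in Rh30 replicates A, B and C was 922, 912 and 931 CPM in sgCTL, 805, 779 and 731 CPM in sgDNAJC17 and 796, 715 and 673 CPM in ΔRRM. MCM7 was lower in every library with the guide (log2 fold change -0.24, SE 0.06, adjusted p = 0.00625).

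POLE was low in Rh30 and overlapped between control and knockdown. POLE in Rh30 replicates A, B and C was 74.6, 64.9 and 66.5 CPM in sgCTL, 65.6, 51.9 and 49.0 CPM in sgDNAJC17 and 31.4, 32.5 and 36.2 CPM in ΔRRM. Replicate A of sgDNAJC17 reached the lowest control (log2 fold change -0.29, SE 0.09, adjusted p = 0.0267), and the call is lost without sgCTL replicate A or C or sgDNAJC17 replicate B or C (adjusted p 0.0517 to 0.13) and with GC content and length corrected, where the log2 fold change is -0.01. Among the members called higher, ORC6, the smallest origin recognition subunit, rose most. ORC6 in Rh30 replicates A, B and C was 37.5, 41.0 and 40.5 CPM in sgCTL, 47.2, 49.1 and 59.0 CPM in sgDNAJC17 and 69.6, 74.7 and 74.3 CPM in ΔRRM. All 3 groups were apart (log2 fold change 0.40, SE 0.09, adjusted p = 0.00327). ORC4 in Rh30 replicates A, B and C was 36.7, 43.2 and 40.8 CPM in sgCTL, 44.7, 48.6 and 52.6 CPM in sgDNAJC17 and 69.8, 75.9 and 74.5 CPM in ΔRRM. ORC4 followed the same order (log2 fold change 0.29, SE 0.08, adjusted p = 0.0148), with its call lost without sgCTL replicate A or sgDNAJC17 replicate B or C (adjusted p 0.0555 to 0.0777). RPA2 in Rh30 replicates A, B and C was 95.4, 106 and 105 CPM in sgCTL, 114, 134 and 137 CPM in sgDNAJC17 and 167, 162 and 164 CPM in ΔRRM. RPA2 was higher in every library with the guide (log2 fold change 0.35, SE 0.08, adjusted p = 0.00432). GINS1 in Rh30 replicates A, B and C was 95.8, 98.5 and 100.4 CPM in sgCTL, 109, 118 and 124 CPM in sgDNAJC17 and 159, 163 and 165 CPM in ΔRRM. GINS1 was called here, with no overlap between groups (log2 fold change 0.26, SE 0.07, adjusted p = 0.00803).

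**Figure D3:**
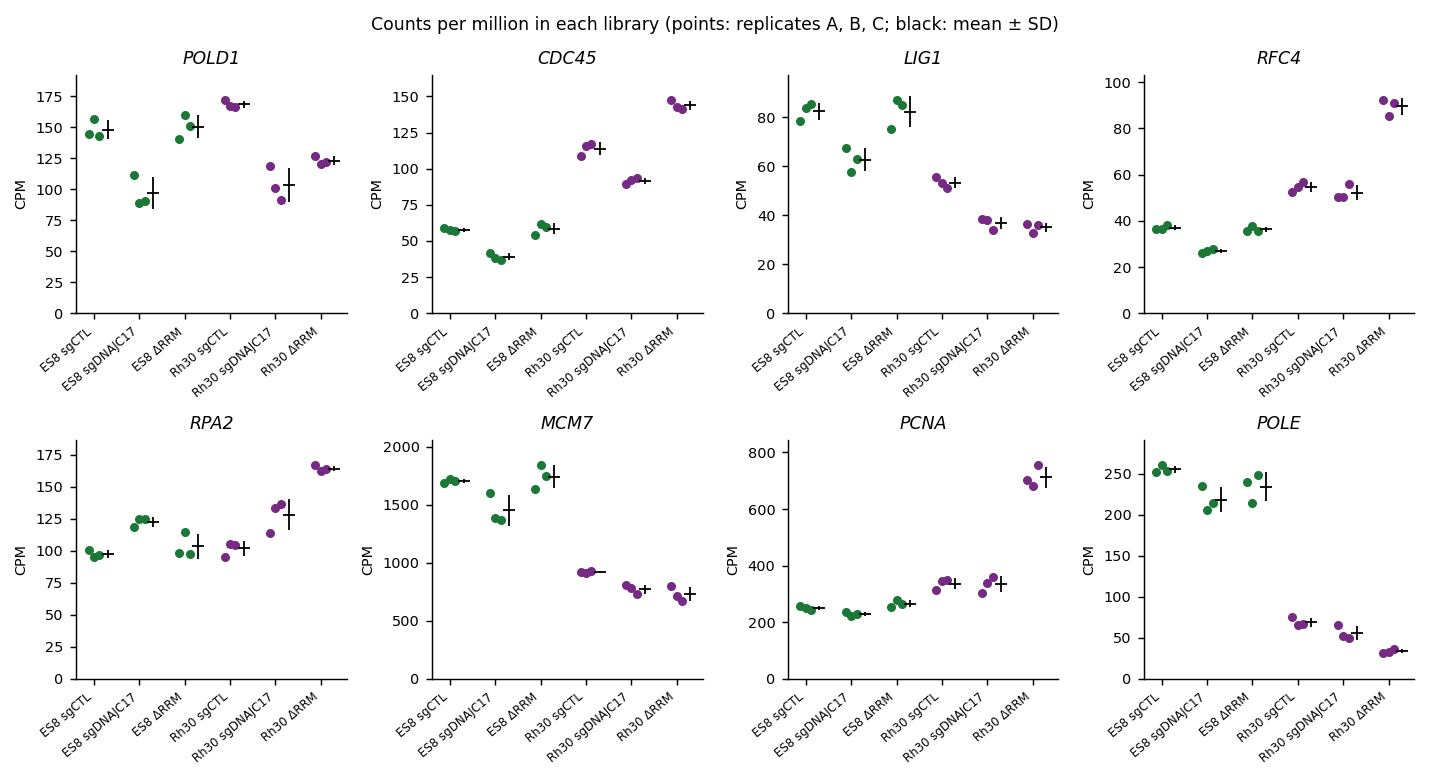
CPM (y axis, from 0) of 8 members in each of the 18 libraries (x axis, 6 groups), with replicates A, B and C as points and the mean ± SD (n = 3) in black, ES8 in green and Rh30 in purple. The POLD1, CDC45 and LIG1 points fall in the sgDNAJC17 groups of both lines, while PCNA in Rh30 ΔRRM cells is 679.8 to 754 CPM against 312.5 to 349.5 in sgCTL.

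In Rh30 ΔRRM cells the replication genes did not stand near the control level. Genes at large were also called often in both directions, and only the higher share of the members was above that of all genes. Against sgDNAJC17 cells 25 members were higher, 56.8% beside a background of 29.4% of 15309 genes, and 11 lower, 25% beside 30.5%. Against sgCTL cells 24 were higher, 54.5% beside a background of 33.8% of 15442 genes, and 14 lower, 31.8% beside 35%, with a list median of 0.30. Without sgCTL replicate A 24 were higher and 14 lower, beside backgrounds of 30.8% and 32.4%. When libraries were scaled by their totals alone the median of all genes moved to -0.25, and 19 members were higher and 20 lower against sgCTL, beside backgrounds of 23.2% and 46.8%. Against sgDNAJC17 the median of all genes moved to -0.17, and 19 members were higher and 14 lower, beside 21% and 40.7%, so the changes below are relative to the bulk of genes. Roles split. All 6 MCM subunits were lower than in sgCTL (from -0.63 for MCM2 to -0.23 for MCM4), though MCM4 and MCM5 lose their calls with GC content and length corrected. ORC1, CDT1, POLA1, POLD1, POLE, RFC1, FEN1 and LIG1 were lower too, of which POLD1 turned sign with that correction. ORC2 to ORC6, GMNN, which blocks relicensing by binding CDT1, PCNA, RFC2 to RFC5, RPA2 and RPA3, and 5 of the 6 activation factors were higher, as were PRIM1, PRIM2, POLD3, POLE2, TYMS and RRM2, and of all these ORC3 turned sign with GC content and length corrected and MCM10 with scaling by totals alone. The 7 members lower in the Rh30 knockdown had a median of -0.40 in ΔRRM against sgCTL, and the 7 higher ones 0.73, in comparisons that share the sgCTL libraries.

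PCNA, the sliding clamp, was the member that rose most against sgDNAJC17. PCNA in Rh30 replicates A, B and C was 312, 346 and 349.5 CPM in sgCTL, 303, 339.9 and 359.9 CPM in sgDNAJC17 and 702, 679.8 and 754 CPM in ΔRRM. The ΔRRM libraries were all above the other 6, which overlapped (log2 fold change 1.10, SE 0.08, adjusted p = 9.88e-21). RPA3, the small RPA subunit, rose most against sgCTL (log2 fold change 1.21, SE 0.06, adjusted p = 2.13e-24). RPA3 in Rh30 replicates A, B and C was 56.1, 61.0 and 61.6 CPM in sgCTL, 59.7, 71.9 and 73.4 CPM in sgDNAJC17 and 134, 127 and 141 CPM in ΔRRM. Its ΔRRM libraries were all highest. PRIM1 in Rh30 replicates A, B and C was 37.8, 39.7 and 41.9 CPM in sgCTL, 35.3, 37.3 and 38.1 CPM in sgDNAJC17 and 70.8, 77.1 and 70.3 CPM in ΔRRM. PRIM1 was higher in ΔRRM cells than in all other libraries (log2 fold change 0.99, SE 0.08, adjusted p = 1.97e-18). POLE2 in Rh30 replicates A, B and C was 16.0, 17.9 and 19.3 CPM in sgCTL, 14.6, 19.0 and 19.7 CPM in sgDNAJC17 and 35.2, 34.2 and 34.6 CPM in ΔRRM. POLE2 did the same (log2 fold change 0.98, SE 0.09, adjusted p = 1.96e-15). RFC4 in Rh30 replicates A, B and C was 52.4, 54.5 and 56.6 CPM in sgCTL, 50.1, 50.5 and 55.9 CPM in sgDNAJC17 and 92.2, 85.3 and 90.8 CPM in ΔRRM. RFC4 rose less (log2 fold change 0.79, SE 0.08, adjusted p = 2.37e-14).

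Against these, POLE, MCM2, FEN1 and POLA1 were lower in ΔRRM cells. POLE was 31.4 to 36.2 CPM there (log2 fold change -0.73, SE 0.09, adjusted p = 1.58e-11 against sgDNAJC17, and -1.01 against sgCTL). MCM2 in Rh30 replicates A, B and C was 467, 434 and 441 CPM in sgCTL, 451, 416 and 359 CPM in sgDNAJC17 and 295, 282 and 268 CPM in ΔRRM. MCM2 was below every other Rh30 library (log2 fold change -0.53, SE 0.08, adjusted p = 1.96e-08). FEN1 in Rh30 replicates A, B and C was 197, 198 and 194 CPM in sgCTL, 209, 203 and 188 CPM in sgDNAJC17 and 153, 147 and 141 CPM in ΔRRM. FEN1 was lower too (log2 fold change -0.44, SE 0.08, adjusted p = 9.5e-07). POLA1 in Rh30 replicates A, B and C was 111, 107 and 114 CPM in sgCTL, 106, 99.7 and 104 CPM in sgDNAJC17 and 81.7, 78.2 and 67.3 CPM in ΔRRM. POLA1 fell (log2 fold change -0.44, SE 0.08, adjusted p = 1.75e-06) while PRIM1 of the same polymerase alpha complex rose. RRM2 in Rh30 replicates A, B and C was 375, 382 and 391 CPM in sgCTL, 368, 376 and 371 CPM in sgDNAJC17 and 477, 465 and 443 CPM in ΔRRM. RRM2 was modestly higher (log2 fold change 0.32, SE 0.08, adjusted p = 0.000239). CDT1 in Rh30 replicates A, B and C was 84.1, 82.0 and 74.9 CPM in sgCTL, 84.2, 71.8 and 62.6 CPM in sgDNAJC17 and 62.4, 58.2 and 55.3 CPM in ΔRRM. CDT1 was lowest in ΔRRM cells (log2 fold change -0.30, SE 0.08, adjusted p = 0.00113).

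The Rh30 values moved with GC content. The GC content of a gene was the mean over its GENCODE transcripts on another genome build, each weighted equally, and not over the exons counted. Over all genes the median log2 fold change of Rh30 ΔRRM against sgCTL went from 0.37 in genes under 40% GC to -0.44 in genes over 60% GC, and in the Rh30 knockdown from 0.12 to -0.19. Among the 44 members Pearson's r between log2 fold change and this GC content was -0.594 in Rh30 ΔRRM against sgCTL, -0.459 against sgDNAJC17 and -0.587 in the Rh30 knockdown, and 0.0467 in the ES8 knockdown. These are correlations across genes, which share the same libraries and are not independent. The 17 members under 45% GC had a median of 0.66 in Rh30 ΔRRM against sgCTL, and the 18 members at 50% or more had -0.32. After a correction for GC content and length the 2 medians were 0.24 and -0.01, and over all genes a residual trend remained, from 0.09 to -0.12. The part of GC content in the Rh30 results was not tested further.

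**Figure D4:**
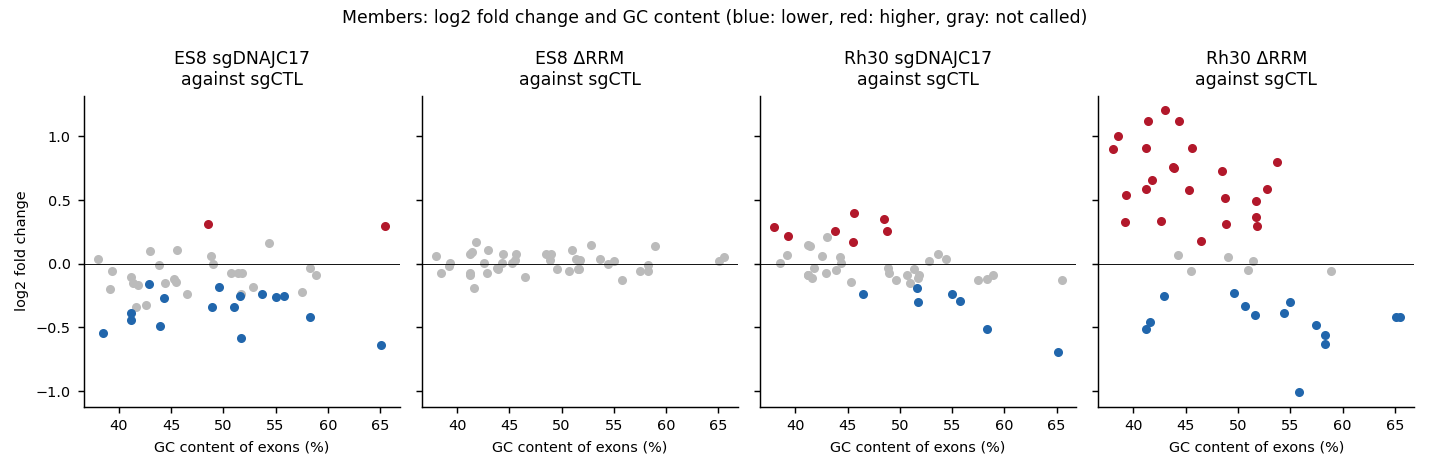
Log2 fold change (y axis) of the 44 members against the mean GC content of their reference transcripts in percent (x axis, labelled as exons) in 4 comparisons, blue where called lower, red where called higher and gray where not called. In Rh30 ΔRRM against sgCTL the red points lie towards low GC content (r = -0.594), while in the ES8 panels no slope is seen (r = 0.0467 and 0.0657).

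With that correction 33 of the 38 calls in Rh30 ΔRRM against sgCTL were kept, and those of MCM4, MCM5, ORC3, POLD1 and TYMS were lost. The corrected log2 fold changes were 0.52 for PCNA, 0.82 for RPA3, 0.58 for GMNN, 0.85 for ORC4, -0.36 for POLE and -0.53 for MCM6. All 6 MCM genes kept a negative sign, from -0.53 to -0.04, while ORC3 and POLD1 turned. Under scaling by totals alone MCM10 turned. In the Rh30 knockdown the corrected fit kept 11 of 14 calls (not CDC6, PRIM2 or POLE). The summed epithelial markers, higher in both Rh30 groups with the DNAJC17 guide than in Rh30 sgCTL, moved with the same contrast. Of the 12, only 1 had a mean of at least 5 CPM in Rh30 sgDNAJC17 and only 1 in Rh30 ΔRRM. The 8 rhabdomyosarcoma markers summed to 4747 to 4847 CPM in sgCTL, 4163 to 4598 in sgDNAJC17 and 3053 to 3386 in ΔRRM libraries. Their part in these results was not tested.

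The remaining members are described by their log2 fold changes. In the ES8 knockdown MCM4 and MCM6 fell (-0.18 and -0.16), with MCM5 at -0.22 (adjusted p = 0.0755). The origin recognition subunits ORC1, ORC2, ORC3 and ORC5 were at -0.07, -0.32, -0.20 and -0.10 there, without a call. CDC6, the ATPase that recruits CDT1 to origins, was at -0.14 in ES8 without a call and rose in the Rh30 knockdown (log2 fold change 0.17, SE 0.06, adjusted p = 0.0348). In Rh30 ΔRRM cells it was lower than in sgDNAJC17 cells (log2 fold change -0.25, SE 0.08, adjusted p = 0.00442). GMNN was at -0.15 in the ES8 and 0.14 in the Rh30 knockdown, neither called, and rose in Rh30 ΔRRM cells (log2 fold change 0.97, SE 0.08, adjusted p = 5.96e-18).

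Of the activation factors, GINS2 fell in the ES8 knockdown (log2 fold change -0.24, SE 0.06, adjusted p = 0.0114) and was at 0.08 in Rh30 without a call, while GINS3 and GINS4 were called in neither knockdown. GINS3 was also the one activation factor not called in Rh30 ΔRRM against sgCTL (0.02). MCM10, which helps to start unwinding, fell in the Rh30 knockdown (log2 fold change -0.24, SE 0.06, adjusted p = 0.00785) and rose in ΔRRM against sgDNAJC17 (0.40). POLA2, the B subunit of polymerase alpha, fell in ES8 (log2 fold change -0.34, SE 0.06, adjusted p = 0.00267) and was at -0.15 in Rh30, not called. PRIM2, the large primase subunit, was at -0.06 in ES8, not called, and rose in Rh30 (log2 fold change 0.22, SE 0.08, adjusted p = 0.0377). POLD2 and POLD3, accessory subunits of polymerase delta, were called in neither knockdown (-0.09 and -0.12 in ES8, -0.09 and -0.14 in Rh30).

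In the clamp loader, RFC1, RFC2 and RFC3 were called in neither knockdown, and RFC5 rose in the Rh30 knockdown (log2 fold change 0.26, SE 0.07, adjusted p = 0.00842). In ES8 RFC5 was not called (log2 fold change 0.06, SE 0.06, adjusted p = 0.479), and the difference between the lines did not pass the interaction test (log2 fold change 0.22, SE 0.10, adjusted p = 0.155). RPA1, the large RPA subunit, was called in no comparison with the DNAJC17 guide (-0.00 in ES8 and -0.07 in Rh30 knockdowns) although it was lower in Rh30 than in ES8 control cells (-0.75). RRM1 fell in ES8 (log2 fold change -0.27, SE 0.06, adjusted p = 0.0114) and was at 0.05 in Rh30, not called. TYMS, which makes thymidylate, was called in neither knockdown (-0.07 and -0.09), and 18.8% of its exonic bases are shared with ENOSF1.

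The 2 lines were compared directly by interaction terms. For the knockdown 6 members had a larger value in Rh30 than in ES8, 13.6% beside a background of 5.23% of 18899 genes: POLE2, RFC4, POLA1, CDC6, RRM1 and RRM2. In the other direction edgeR called 0, beside a background of 4.55% (1 at an unadjusted p under 0.05 and 1 by DESeq2). Among genes with at least 10 counts in every library 6 members were higher and 1 lower, beside larger backgrounds of 7.33% and 7.83%. RFC4 differed with the smallest p (log2 fold change 0.47, SE 0.10, adjusted p = 0.00669), followed by POLA1 (log2 fold change 0.38, SE 0.10, adjusted p = 0.015) and RRM2 (log2 fold change 0.34, SE 0.09, adjusted p = 0.0164). In each the ES8 knockdown libraries lay below their controls, and in Rh30 RFC4 and RRM2 overlapped between control and knockdown. The count moved with single libraries: without Rh30 sgCTL replicate A it was 0 by edgeR, beside a background of 1.62%. Without Rh30 sgDNAJC17 replicate A it was 13 with 1 lower, beside 7% higher, without ES8 sgDNAJC17 replicate A 11, beside 7.33%, and without ES8 sgCTL replicate A or C it was 3 or 2, beside 2.82% and 2.76%. Without ES8 sgDNAJC17 replicate B or C there was also 1 member called lower, beside 4.75% and 4.72%.

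For ΔRRM against sgDNAJC17 the lines differed in 25 members, with 12 higher in Rh30 (27.3% beside a background of 12.8% of 18812 genes) and 13 lower (29.5% beside 15.5%). Among the 12619 genes with at least 10 counts in every library the backgrounds were larger, 21.2% higher and 20.5% lower. In that fit 14 members were higher and 12 lower. PCNA (log2 fold change 0.84, SE 0.12, adjusted p = 2.85e-05) and RPA3 (log2 fold change 0.94, SE 0.14, adjusted p = 3.78e-05) had the larger value in Rh30, and POLA1 (log2 fold change -0.82, SE 0.13, adjusted p = 6.17e-05) rose in ES8 and fell in Rh30. Of the helicase genes 5 of 6 were lower in this contrast, with MCM4 not called. The call of MCM7 was lost in 7 of the 12 fits that leave out 1 library (adjusted p 0.0527 to 0.101). Those of POLD1 and POLE2 were lost in 8 and 9 (0.0573 to 0.151 and 0.0524 to 0.131). With the replicate letter as a block 8 of the 25 calls were lost, those of MCM6, MCM7, GINS2, GINS4, POLA2, POLD1, POLE2 and RRM1. The count of 13 became 7 without Rh30 ΔRRM replicate C and 8 without Rh30 ΔRRM replicate B, beside backgrounds of 11.2% and 12.2%.

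Other genes of S phase were read from lists chosen by name. Of 26 origin firing and fork factors 11 were lower and 1 higher in the ES8 knockdown, a median of -0.31, and 6 were lower and 3 higher in Rh30. These are 42.3% and 3.85% in ES8, beside the 13.8% and 13.6% of all genes, and 23.1% and 11.5% in Rh30, beside 16.2% and 16.1%. The same backgrounds apply to the lists that follow. Values of all these lists come from fits without the GC and length correction, and the Rh30 comparisons show the GC trend described above. The part of that trend in these lists was not tested. RECQL4, a helicase that takes part in origin firing, was lower in both (-0.58 in ES8 and -0.58 in Rh30), as were CHTF18 of the alternative clamp loader (-0.56 and -0.59) and TIMELESS of the fork protection complex (-0.34 and -0.38). POLE3, an accessory subunit of polymerase epsilon, was higher in both (0.21 and 0.38). Of 12 chromatin assembly genes 5 (41.7%) were lower in ES8 and 8 (66.7%) in Rh30, where 1 was higher (8.33%). In ES8 0 were higher by edgeR, with 0 at an unadjusted p under 0.05 and 0 by DESeq2. DNMT1, the maintenance DNA methyltransferase, fell in both (-0.50 and -0.43).

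Among 8 further genes of nucleotide supply 2 were lower in ES8 (25%) and 3 lower (37.5%) and 2 higher (25%) in Rh30, and CAD, the first enzyme of pyrimidine synthesis, was lower in both (-0.35 and -0.45). Of 27 G1-S regulators 8 were lower (29.6%) and 3 higher (11.1%) in ES8, and 11 were lower (40.7%) and 2 higher (7.41%) in Rh30. E2F1, the activator of S phase genes, was lower in both (-0.35 and -0.59), and CDKN1B, a cyclin-dependent kinase inhibitor, was higher in ES8 (0.47) and lower in Rh30 (-0.30). Of 24 G2-M genes 6 were lower (25%) and 4 higher (16.7%) in ES8 and 4 lower (16.7%) and 2 higher (8.33%) in Rh30, the Rh30 lower share being close to its background. In Rh30 ΔRRM against sgDNAJC17 14 of the 24 were higher and 1 lower, beside the backgrounds of 29.4% higher and 30.5% lower given for that comparison. BIRC5, an inhibitor of apoptosis that acts in mitosis, was higher in both knockdowns (0.41 and 0.28).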

How the data were processed

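Poly(A) RNA-seq counts of 18 libraries were used, 3 in each of 6 groups. The authors trimmed reads with Trimmomatic 0.36, aligned them with STAR 2.5.2b and counted them per gene with featureCounts of Subread 1.5.2, as the submitters' processing notes name the tools, and deposited raw counts. Gene positions in the files were those of GRCh38. Whether counting used strand is not given in the sources used here. The DNA replication genes and the other lists were chosen with earlier results of these data known.

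Counts were tested with edgeR 4.0.16 (quasi-likelihood test, TMM normalization, its own filter on low counts) in R 4.3.3, with p-values adjusted over all genes tested by the Benjamini-Hochberg method and called under 0.05. Each comparison was fitted on its own groups, and interactions on the groups of both lines. CPM used TMM library sizes. The SE of a log2 fold change is its absolute value divided by the square root of the F statistic of the edgeR test. The members given in full were those called alike in both knockdowns, the 3 largest changes per direction in each knockdown and each ΔRRM against sgDNAJC17 comparison, the 3 smallest p of each interaction, and GINS1. Alternatives were DESeq2 1.42.0, its size factors, library totals alone, other filters, all libraries in 1 fit, a GC and length correction, a replicate block and each library left out. The edgeR fit was also run on simulated counts for the Rh30 knockdown alone, with the same spread for every gene and no GC trend or outlying library. That run therefore does not test the fits under the GC trends and uneven libraries of these data. Library totals of 35342393 to 48245989 put every member at 330 counts or more in each library.

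Pairing was checked by the correlation of same-letter deviations from group means. In the Rh30 knockdown it was 0.203, 0.072 and 0.0975 for A, B and C over all 15391 genes, 0.439, 0.172 and 0.236 over 12648 genes above 1 CPM, and 0.753, 0.449 and 0.494 over 8998 genes above 10 CPM. The letters were taken as pairing there from the values above 1 CPM, a limit chosen after the values were seen. Over all genes 2 of the 3 letters were below 0.1.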

Additional observations from a re-analysis of the deposited data

Results flagged for a closer look

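The response to the DNAJC17 guide differed between the 2 lines in 6 members by the interaction test of edgeR. As the Rh30 value minus the ES8 value on the log2 scale, the differences were 0.34 for CDC6, 0.38 for POLA1, 0.58 for POLE2, 0.47 for RFC4, 0.34 for RRM1 and 0.34 for RRM2. All 6 calls were lost without Rh30 sgCTL replicate A, where the adjusted p was 0.0876 for POLA1 and 0.0503 for RFC4.

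The difference between ΔRRM and sgDNAJC17 cells also differed between the lines, in 25 members. It was larger in Rh30 for 12 of them: 0.56 for ORC4, 0.50 for ORC6, 0.70 for GMNN, 0.47 for GINS1, 0.39 for GINS2, 0.37 for GINS4, 0.65 for PRIM1, 0.55 for POLD3, 0.48 for POLE2, 0.84 for PCNA, 0.56 for RPA2 and 0.94 for RPA3. It was smaller in Rh30 for 13: -0.52 for MCM2, -0.47 for MCM3, -0.54 for MCM5, -0.31 for MCM6, -0.38 for MCM7, -0.44 for CDC6, -0.82 for POLA1, -0.40 for POLA2, -0.42 for POLD1, -0.87 for POLE, -0.55 for RFC1, -0.50 for LIG1 and -0.29 for RRM1. ES8 sgDNAJC17 replicate A, the library that stood apart most, enters both sets of interactions. Without it 16 members were lower and 15 higher in the second, beside backgrounds of 18.2% and 14.3%. With the replicate letter as a block 17 of the 25 calls were kept. The GC trend of the Rh30 libraries moves with the same contrast, and after the correction for GC content and length 23 of the 25 calls were kept (not POLD1 or POLE2). The part of the GC trend in the rest was not tested.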

How the results depend on the processing

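The ES8 knockdown kept a negative list median and the Rh30 ΔRRM comparisons a positive one under every alternative run. Where a count or a median moved, lower and higher calls are given in that order. The shares of all genes, where given, follow as percentages in brackets in the same order. At an adjusted p under 0.01 the ES8 knockdown had 10 and 1, the Rh30 knockdown 4 higher, ES8 ΔRRM against sgDNAJC17 4 higher, the guide interaction 1 higher and the ΔRRM interaction 8 lower. With a fold of at least 2 the knockdowns had 0 and 0 in each line, ES8 ΔRRM against sgDNAJC17 0 higher, Rh30 ΔRRM 0 and 1 against sgDNAJC17 and 1 and 4 against sgCTL, the control cells 1 and 3, the guide interaction 0 higher and the ΔRRM interaction 0 and 0. Shares of all genes are not given for these cutoffs, so the counts at them cannot be read against a background. With GC content and length corrected the counts were 27 and 4 in the ES8 knockdown (20% and 22.3%) and 15 lower in the Rh30 knockdown (14.9%). They were 2 and 20 in ES8 ΔRRM against sgDNAJC17 (16.2% and 15.7%) and 16 higher in the guide interaction (10.7%). The Rh30 ΔRRM medians were 0.18 against sgDNAJC17 and 0.13 against sgCTL. Scaling by library totals alone gave 12 lower in the Rh30 knockdown (20.8%), 1 lower in the guide interaction (5.69%) and 6 higher in the ΔRRM interaction (8.07%). The medians were then -0.22 and -0.12 in the ES8 and Rh30 knockdowns, 0.10 and 0.07 in Rh30 ΔRRM against sgDNAJC17 and sgCTL, -0.02 between the control cells and -0.14 in the ΔRRM interaction. All 18 libraries in 1 fit gave 2 and 18 in ES8 ΔRRM against sgDNAJC17 (12.4% and 11%), and 1 and 3 (6.42% and 3.14%) with a median of 0.11 in the guide interaction. DESeq2 gave 1 and 10 in the guide interaction (8.06% and 8.4%). That interaction had 1 lower with no filter (3.27%). With at least 10 counts in every library it had 1 and 6 (7.83% and 7.33%), and the ΔRRM interaction 12 and 14 (20.5% and 21.2%). The last filter gave a median of 0.11 between the control cells. The sign turned with GC content and length corrected for PCNA in the Rh30 knockdown (-0.21) and for LIG1 in Rh30 ΔRRM against sgDNAJC17 (0.18). Beyond what each alternative leaves out, the cause was not tested.

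With the replicate letter as a block, the Rh30 knockdown had 16 lower (23.5%) and ES8 ΔRRM against sgDNAJC17 5 higher (3.61%). The guide interaction had 1 and 10 (5.64% and 6.57%), and the ΔRRM interaction 8 lower (12.2%). With the replicate block and the GC correction together the counts were 26 and 4 in the ES8 knockdown (19.1% and 21.6%) and 20 lower in the Rh30 knockdown (20.4%). They were 2 and 17 in ES8 ΔRRM against sgDNAJC17 (14.3% and 13.4%) and 20 higher in the guide interaction (13.9%). The Rh30 ΔRRM medians were 0.18 and 0.13, and the sign turned for POLE2 (-0.18) and PCNA (-0.21) in the Rh30 knockdown and for LIG1 in Rh30 ΔRRM against sgDNAJC17 (0.18). Outside the Rh30 knockdown the samples share only a letter: above 1 CPM, the limit used for the Rh30 knockdown, same-letter correlations ran from -0.446 to 0.224 in the other comparisons, and in none were all 3 over 0.1. There the block alone dropped MCM4 and MCM6 from the ES8 knockdown and kept 5 of 11 calls in ES8 ΔRRM against sgDNAJC17.

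Leaving out 1 library at a time gave 10 to 27 lower and 1 to 5 higher in the ES8 knockdown (6.69% to 22.9% and 7.61% to 22.4%). It gave 5 to 10 and 3 to 11 in the Rh30 knockdown (9.91% to 21.1% and 9.45% to 20.3%). In ES8 ΔRRM it gave 0 to 1 and 3 to 15 against sgDNAJC17 (3.48% to 9.3% and 2.6% to 9.88%), and 0 to 1 lower against sgCTL (0% to 1.32%). The guide interaction had 0 to 1 and 0 to 13 (2.43% to 5.96% and 1.62% to 7.33%), with medians from 0.07 to 0.24. The ΔRRM interaction had 7 to 16 and 9 to 15 (10.3% to 18.2% and 10.1% to 14.3%), with medians from -0.03 to 0.07. The 3 replicates per group of cells plated together limit every p-value, and small changes of low members such as POLE2 are the least well measured.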
